A study of Mus musculus with 4 samples.

Results

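Lactobacillus rhamnosus GG (LGG), a Gram-positive probiotic strain, was compared with Escherichia coli, a Gram-negative bacterium, 4 h after oral gavage of germ-free mice. The comparison uses 2 of the 4 colon RNA-seq libraries of the study, 1 per bacterium, and the 14450 of 24016 listed genes whose level averaged at least 1 CPM (counts scaled to library size) over all 4 libraries. All mice were germ-free C57BL/6 animals of 7 weeks. Both bacteria were given at the same concentration, phosphate-buffered saline (PBS) was gavaged in another group, and a further library came from untreated mice. Each gavaged group had 4 mice and 4 cm of colon were taken per animal, per the labels, which do not state whether RNA of several mice was pooled and do not name the E. coli strain. With 1 library per condition there is no replicate check and no p-value, so every interval covers counting error only and every difference is a difference between libraries.

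Germ-free animals carry no microbes, so an oral dose is the first bacterial contact of their gut. Gram-negative bacteria carry lipopolysaccharide, which is read by the receptor pair of Tlr4 and Ly96, whereas the lipoproteins and muramyl peptides of Gram-positive bacteria are read mainly by Tlr2 and Nod2. Tlr4 and Tlr2 both signal through Myd88 and Nod2 signals through Ripk2, and all of them can switch on NF-kB. The series title names the Nrf2 pathway, in which the oxidant sensor Keap1 releases the transcription factor encoded by Nfe2l2, and lactobacilli are known for evoking reactive oxygen through the epithelial oxidase Nox1.

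The libraries held 16289580.0 (PBS) to 29899371 (LGG) counts, and E. coli and LGG were sequenced to nearly the same depth. The tissue label was checked against markers. Car1, the carbonic anhydrase of colonocytes, was at 2686 CPM after E. coli and 3623 after LGG, and the mucin Muc2 at 8174 and 9719.9. Of the 12 Paneth cell genes looked for, 8, all of them defensins, had no count in either library, which allows up to 0.103 CPM. Whether defensin reads were lost between similar copies was not tested. The Paneth genes Lyz1, Itln1 and Pla2g2a were measured, and these 3 summed to 14.7 CPM after E. coli and 13.3 after LGG. Genes of fat, pancreas and mesothelium were present too and are given below where they bear on a result. The 2 libraries without bacteria already stood apart from each other: 209 genes, or 1.45% of those tested, differed at least 2-fold between PBS and untreated.

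Most genes lay close to equality. The median log2 ratio of LGG over E. coli was -0.00022 with quartiles of -0.10 and 0.10, and 49.9% of genes were above 0. A gene was called when its ratio was at least 2-fold and its 95% counting interval excluded equality. By this rule 38 genes (0.263%) were higher and 14 genes (0.0969%) were lower in the LGG library. A looser rule of 1.5-fold called 194 genes higher (1.34%) and 122 lower (0.844%). Counting intervals lay wholly below 0 for 16.2% of all genes, a share that ran from 5.66% between 1 and 5 CPM to 30.7% above 500 CPM because intervals narrow with depth. These shares are the background for each gene list below.

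The called genes were mostly scarce transcripts. Of the 2613 genes between 1 and 5 CPM, 39 passed 2-fold, against 12 of 7232 genes between 5 and 50 CPM, 0 of 4377 between 50 and 500 CPM and 1 of 228 above that. The median width of the log2 counting interval fell in the same order, from 1.03 in the lowest class to 0.0518 in the highest, so small differences could be seen only in abundant genes. The 1 abundant gene past 2-fold was Rn45s, the ribosomal RNA precursor. Above a mean of 50 CPM, 22 genes were higher and 6 lower past 1.5-fold. The higher ones included Lpl (0.93), the lipase that frees fatty acids from lipoproteins, the cytochromes Cyp2c65 (0.89) and Cyp2c55 (0.80), and Slc51a (0.88), a subunit of the basolateral bile acid exporter. Slc36a1 (-0.76), a proton-coupled amino acid transporter, and Nr1d1 (-0.73), the clock repressor Rev-erb alpha, were among the lower ones.

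**Figure D1:**
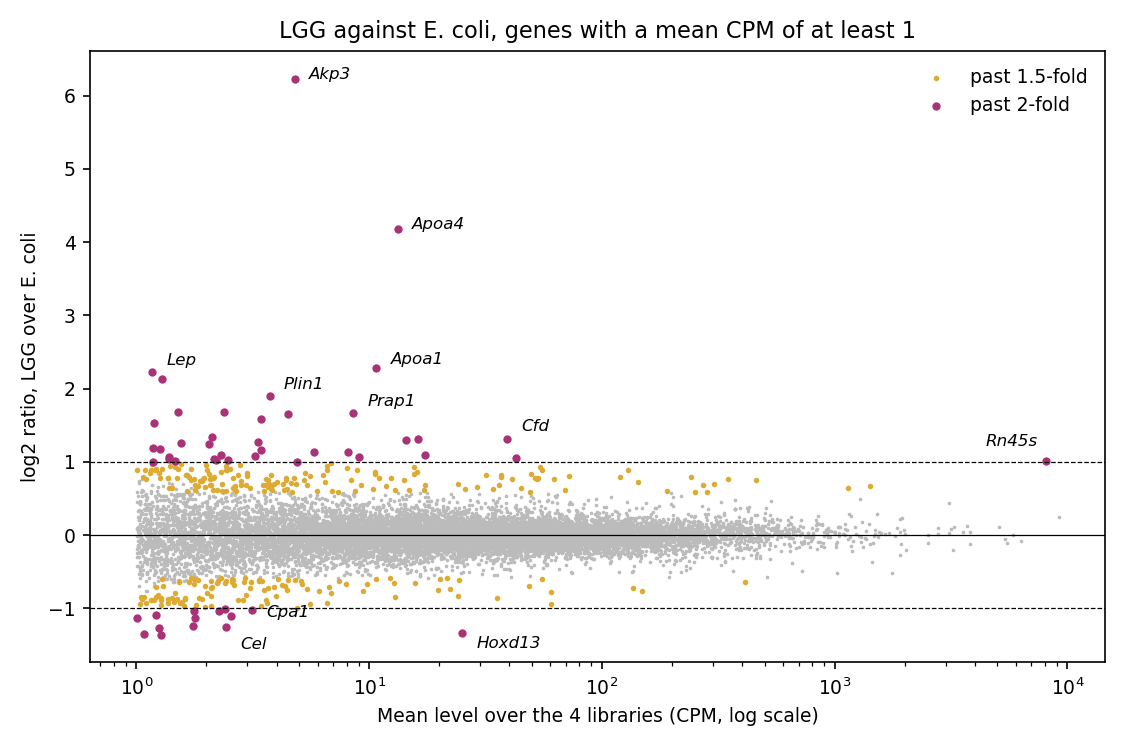
Log2 ratio of LGG over E. coli (vertical axis) against the mean level of each gene over the 4 libraries in CPM (horizontal axis, log scale), 1 point per gene for 14450 genes. Orange points passed 1.5-fold and purple points 2-fold; dashed lines mark 2-fold. Most purple points lie at low levels, and Akp3, Apoa4 and Apoa1 have the highest ratios.

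Genes of the small intestinal absorptive cell had the highest ratios of all. Akp3 (NM_007432, chromosome 1, 89021583 to 89024487 in mm9), an intestinal alkaline phosphatase that sits in the brush border and removes phosphate from lipopolysaccharide among other substrates, had 118 counts in the LGG library and 1 in the E. coli library. Its levels were 14.6 CPM untreated, 0.561 after PBS, 0.0344 after E. coli and 4.03 after LGG. The log2 ratio was 6.23, and the single E. coli count leaves a wide interval of 4.37 to 12.19. Akp3 was highest without gavage, followed by the LGG library, and nearly absent from the others. In bulk tissue fewer cells of a type and less RNA per cell cannot be told apart, here and in every list below.

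Apoa4 and Apoa1 encode apolipoproteins that leave the enterocyte on lipid particles, and their start sites lie 12.2 kb apart on chromosome 9. Apoa4 (46048927 to 46051541 in mm9) was at 45.8 CPM untreated, 1.25 after PBS, 0.31 after E. coli and 5.95 after LGG, a log2 ratio of 4.18 (3.30 to 5.42). Apoa1 (46036713 to 46038552 in mm9) was at 19.7, 4.61, 3.17 and 15.5 CPM in the same order, a ratio of 2.29 (1.97 to 2.63). Both neighbours had the same order of libraries as Akp3, but LGG reached close to the untreated level for Apoa1 and stayed well under it for Apoa4.

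The promoters of these leading genes are shown because intestinal apolipoprotein and phosphatase genes are textbook targets of HNF4, a nuclear receptor of the enterocyte. Each line gives the 250 bases before the start site from RefSeq (GRCm38.p6), all on the + strand, for Akp3 at chr1:87124704-87124953, Apoa4 at chr9:46240594-46240843 and Apoa1 at chr9:46228380-46228629. Capitals mark the HNF4 half-site core CAAAGT on either strand in Akp3 and Apoa4. Apoa1 had no such core, and its capitals mark the E-box CACCTG, another motif searched here that is not an HNF4 site.
Akp3: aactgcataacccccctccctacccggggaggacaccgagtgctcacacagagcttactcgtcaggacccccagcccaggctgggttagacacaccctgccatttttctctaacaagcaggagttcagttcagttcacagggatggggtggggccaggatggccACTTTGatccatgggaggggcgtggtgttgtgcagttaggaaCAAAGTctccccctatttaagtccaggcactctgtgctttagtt
Apoa4: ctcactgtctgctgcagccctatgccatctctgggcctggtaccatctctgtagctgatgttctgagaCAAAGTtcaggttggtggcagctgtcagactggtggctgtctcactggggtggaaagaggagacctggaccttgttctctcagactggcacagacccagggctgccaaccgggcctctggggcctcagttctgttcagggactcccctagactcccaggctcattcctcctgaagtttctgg
Apoa1: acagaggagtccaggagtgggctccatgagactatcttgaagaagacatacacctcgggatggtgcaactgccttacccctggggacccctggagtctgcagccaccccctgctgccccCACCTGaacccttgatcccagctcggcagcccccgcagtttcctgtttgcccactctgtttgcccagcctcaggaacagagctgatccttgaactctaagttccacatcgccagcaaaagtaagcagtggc
The core CAAAGT occurred 2 times in the Akp3 window, 1 time in Apoa4 and 0 times in Apoa1. It stood in 12.6% of all 32851 promoters of the same length and in 8 of the 29 called genes that had a promoter in the table (27.6%). This short motif was chosen after longer forms had given no match in these windows, no test was made, and a match of letters is not evidence of binding.

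Other brush border genes were mixed. Of 20 measured members of a small intestinal brush border list, 12 had ratios above 0, 3 were higher and 0 lower past 2-fold, and the median was 0.14; that median fell to -0.0011 when genes had to average 5 CPM. Prap1, a secreted proline-rich protein of the gut epithelium, was at 15.1 CPM untreated, 4.86 after PBS, 3.37 after E. coli and 10.7 after LGG, a ratio of 1.66 (1.34 to 2.01). Lct, the milk sugar enzyme lactase, was at 3.92, 0.249, 0.172 and 0.82 CPM, and its ratio of 2.13 (0.83 to 4.00) rests on 24 counts against 5. Alpi, another intestinal alkaline phosphatase, was at 0.68 (0.55 to 0.81). The transporters with the most counts went the other way: the peptide carrier Slc15a1 was at -0.36 (-0.40 to -0.31) and the sodium-glucose carrier Slc5a1 at -0.14 (-0.19 to -0.10).

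Several genes that take up and export dietary fat were higher. In the lipid absorption list 14 of 18 measured members were above 0, 3 passed 2-fold and 6 passed 1.5-fold on the higher side, none passed on the lower side, and the median was 0.35. Mogat2, which rebuilds triglyceride from absorbed monoacylglycerol, was at 4.41 CPM untreated, 2.62 after PBS, 1.82 after E. coli and 4.44 after LGG (ratio 1.27, 0.81 to 1.77). Fabp2, the intestinal fatty acid binding protein, was at 274 CPM after E. coli and 464 after LGG, with 330.1 untreated and 322 after PBS, so LGG was the highest of the 4. Creb3l3, a membrane-bound transcription factor known to drive Apoa4, was at 0.76 (0.41 to 1.11), and Mttp, which loads lipid onto apolipoprotein B, at 0.70 (0.24 to 1.16). Apob itself differed little, at 0.11 (0.05 to 0.18).

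S100g, the vitamin D-induced calcium shuttle calbindin-D9k, was at 7.29 CPM untreated, 3.86 after PBS, 1.62 after E. coli and 5.13 after LGG, a ratio of 1.65 (1.18 to 2.17). Of 8 measured members of the vitamin D and calcium list, S100g included, 5 were above 0, with a median of 0.06. The sodium-calcium exchanger Slc8a1 was at 0.28 (0.19 to 0.36), the calcium pump Atp2b1 and the claudin Cldn2 were both at 0.07, the entry channel Trpv6 was at -0.63 (-1.10 to -0.18), and the vitamin D receptor Vdr was at -0.08 (-0.11 to -0.05).

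**Figure D2:**
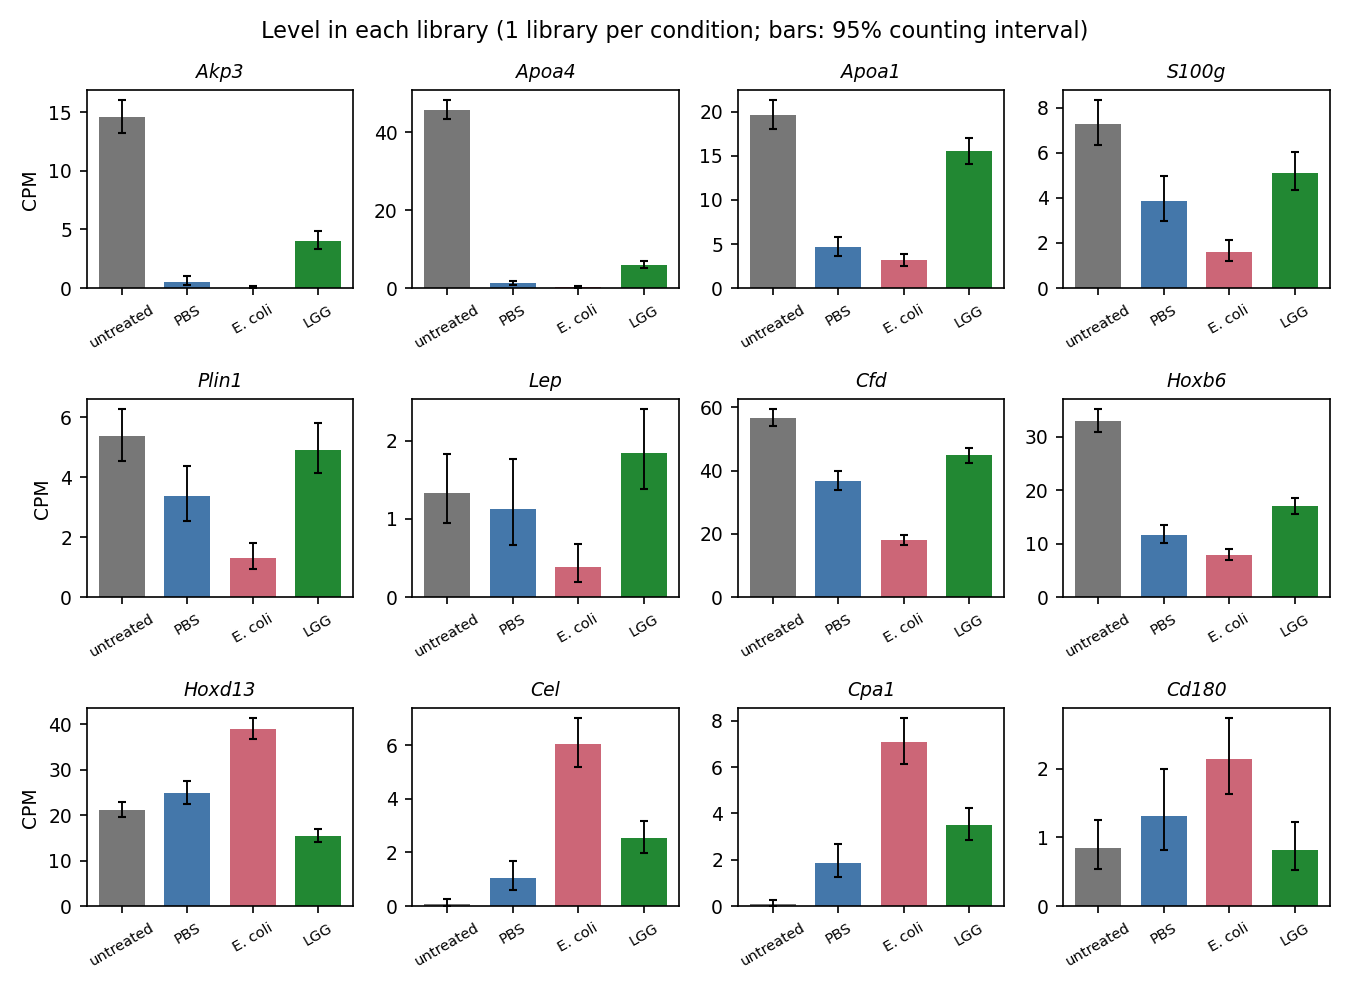
Level in CPM (vertical axis, linear, from 0) of 12 leading genes in the untreated, PBS, E. coli and LGG libraries, 1 bar per library, with exact 95% Poisson counting intervals. The top 4 panels and Plin1, Cfd and Hoxb6 are lowest after E. coli and highest in the untreated library, whereas Hoxd13, Cel, Cpa1 and Cd180 are highest after E. coli.

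Fat cell genes were higher in the LGG library as a group. Of 20 adipocyte markers 16 were measured, 15 of them had ratios above 0, 6 passed 2-fold and 10 passed 1.5-fold on the higher side, none passed on the lower side, and the median was 0.93. The summed level of the list was 559 CPM untreated, 434 after PBS, 372 after E. coli and 536 after LGG. Ucp1, the marker of brown fat, had no count in either bacterial library.

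Plin1, the coat protein of the fat droplet, was at 5.36 CPM untreated, 3.36 after PBS, 1.31 after E. coli and 4.92 after LGG, a ratio of 1.90 (1.39 to 2.47). Lep, the satiety hormone leptin, was at 1.33, 1.12, 0.379 and 1.85 CPM, a ratio of 2.23 (1.33 to 3.37). Cfd, the complement protease adipsin, was at 56.7, 36.6, 18.0 and 44.8 CPM (ratio 1.32, 1.17 to 1.47). In all of them E. coli was the lowest library, and LGG lay near the untreated level. Cidec, which fuses fat droplets (1.32), Adipoq, the hormone adiponectin (1.06), and Car3, a carbonic anhydrase of fat and muscle (1.05), had the same order with respect to E. coli and PBS. Pparg, the master regulator of fat cells that the epithelium also expresses, was at 0.11 (0.01 to 0.22).

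Some called genes outside this list are also known from fat. Thrsp, which favours fatty acid synthesis, was at 7.64 CPM after E. coli and 18.8 after LGG (ratio 1.30, 1.07 to 1.53). Mrap, the partner of the corticotropin receptor, was at 0.689 and 2.26 CPM (1.68, 0.97 to 2.51), and Hp, the haemoglobin scavenger haptoglobin, at 1.20 and 3.90 (1.68, 1.14 to 2.28). Nat8l, which makes N-acetylaspartate, and the lipid droplet protein Pnpla3 were higher by 1.16 and 1.00. The part of the adipocyte markers in these and in the lipid absorption results was not tested.

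The leptin promoter, from RefSeq (GRCm38.p6, chr6:29059971-29060220, + strand), is shown because Lep had the highest ratio among fat cell genes and its C/EBP site is a textbook element of fat cell transcription. Capitals mark the palindrome TTGCGCAA, the same on both strands.
Lep: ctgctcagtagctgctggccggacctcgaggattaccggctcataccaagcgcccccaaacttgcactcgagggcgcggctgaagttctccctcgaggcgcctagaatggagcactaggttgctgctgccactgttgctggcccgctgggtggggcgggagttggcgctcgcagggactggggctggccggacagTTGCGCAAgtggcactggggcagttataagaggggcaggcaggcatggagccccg
This palindrome stood in 0.164% of all promoters of that length, and Lep was the 1 gene with it among the 29 called genes with a promoter.

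Fatty acid synthesis genes were split. Of its 17 genes 10 were above 0 and the median was 0.01, a value that turned to -0.0015 when library totals replaced TMM scaling. Beside Thrsp and Pnpla3, Me1 (0.84, 0.72 to 0.96), the malic enzyme that supplies NADPH, and the desaturase Scd1 (0.69, 0.64 to 0.73) were higher, while its relative Scd2 was at -0.37 and the citrate lyase Acly at -0.32. Scd1 was at 304 CPM untreated, 303 after PBS, 186 after E. coli and 299.6 after LGG, with E. coli lowest. Sterol synthesis genes were slightly lower, with 1 of 23 above 0 and a median of -0.06, and Srebf2, the transcription factor that drives the pathway, was at -0.11. Of 23 genes of fatty acid oxidation 18 were above 0 with a median of 0.13 and 3 past 1.5-fold, among them Acaa1b (0.89), a peroxisomal thiolase, and Angptl4 (0.67), a secreted inhibitor of Lpl.

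Detoxification genes were higher in part. No member of the cytochrome P450 or conjugation lists passed 2-fold, but 4 of 19 and 3 of 25 passed 1.5-fold on the higher side and none on the lower side. The first were Cyp2e1 (0.91), Cyp2c65 (0.89), Cyp2c55 (0.80) and Cyp4b1 (0.78), enzymes that oxidise drugs and fatty acids. The second were the glucuronosyltransferase Ugt2b5 (0.93) and the carboxylesterases Ces1f (0.76) and Ces1d (0.59). The part of fat cells, whose markers were higher as well, in these ratios was not tested. The conjugation list had 20 of 25 members above 0 and a median of 0.17. Cyp2c55 was at 358 CPM untreated, 187 after PBS, 154 after E. coli and 269 after LGG, and Cyp4b1 at 80.6, 40.0, 33.8 and 58.1, which is again the order in which E. coli is lowest and untreated highest. Of 12 ileum and bile acid genes 10 were above 0 with a median of 0.15. Slc51a had that order as well, at 99.8, 38.1, 28.9 and 53.2 CPM.

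The Nrf2 pathway differed little between the bacteria. Nfe2l2 was at 202 CPM after E. coli and 211 after LGG (ratio 0.06, 0.01 to 0.11), and Keap1 was at 0.02 (-0.06 to 0.11). Among target genes Nqo1, a quinone reductase, was at 0.16 (0.02 to 0.30), Hmox1, haem oxygenase, at 0.09 (-0.27 to 0.46) and Gclc, the glutathione synthesis enzyme, at 0.01 (-0.06 to 0.09). Of 39 measured targets 24 were above 0 with a median of 0.06, none passed 2-fold in either direction, and Me1, also a lipogenic gene, was the 1 past 1.5-fold. The target with the most counts, Prdx6, a peroxiredoxin, went lower, from 2387 CPM after E. coli to 1660.0 after LGG. Its untreated and PBS levels were 792 and 2242 CPM.

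Enzymes that make reactive oxygen differed by small amounts. Of 12 measured genes of the NADPH and dual oxidases 2 were above 0 and 6 had counting intervals wholly below 0 (16.2% of all genes), with a median of -0.14 and none past 1.5-fold. Nox1, the colonic epithelial oxidase, was at 26.0 CPM untreated, 26.7 after PBS, 26.9 after E. coli and 22.0 after LGG (ratio -0.29, -0.44 to -0.14), so LGG was the lowest of 4 otherwise close values. Duox2, the hydrogen peroxide source of the mucosal surface, was at 59.1, 44.0, 47.3 and 38.1 CPM (-0.31, -0.43 to -0.20). Noxo1, the organiser of Nox1, was at -0.10 (-0.18 to -0.02) and Rac1, the small GTPase of the complex, at -0.04 (-0.07 to -0.00).

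Receptors for the 2 kinds of bacteria were nearly equal. For lipopolysaccharide, Tlr4 was at 21.6 CPM after E. coli and 21.8 after LGG (0.01, -0.15 to 0.17), Ly96 at -0.01 and its helper Cd14 at 0.03. Tlr5, the flagellin receptor, was at 0.15 (-0.25 to 0.55). On the Gram-positive side Tlr2 was at 14 and 15.3 CPM (0.12, -0.07 to 0.32) and Nod2 at 0.26 (-0.22 to 0.75), both with intervals that include equality. Myd88 was at 0.04 (-0.08 to 0.16). Such intervals leave room for differences in either direction, so they do not show that the levels were the same.

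The sensing genes past 1.5-fold were Cd180 and Alpk1, both of the Gram-negative list. Cd180, a Toll-like receptor homologue of B cells and macrophages that modulates the lipopolysaccharide response, was at 0.841 CPM untreated, 1.31 after PBS, 2.13 after E. coli and 0.82 after LGG. E. coli was the highest and LGG the lowest library, a ratio of -1.36 (-2.12 to -0.68) from 62 and 24 counts. Neither place was clear of the next library by its counting interval. Alpk1, the cytosolic sensor of the sugar ADP-heptose made by Gram-negative bacteria, was at 16.5, 23.9, 27.4 and 18.2 CPM (-0.59, -0.75 to -0.43), and its adaptor Tifa was at -0.29. Nod1, which reads a Gram-negative peptidoglycan fragment, was at -0.20 (-0.37 to -0.03). In the whole Gram-negative list 6 of 19 measured genes were above 0, 1 passed 2-fold and 2 passed 1.5-fold, all lower, and 8 of 19 had intervals wholly below 0 (16.2% of all genes), with a median of -0.11. The Gram-positive list had 5 of 10 above 0, none past 1.5-fold and a median of -0.03. Cd36, a lipid scavenger and helper of Tlr2, was at 0.40 (0.22 to 0.59), the 1 gene of this list with an interval wholly above 0. It is also a member of the lipid absorption list, whose ratios were mostly above 0. The peptidoglycan receptor Pglyrp1 was at 0.01, lysozyme Lyz2 at -0.07 and Tlr1, the partner of Tlr2, at -0.24 (-0.33 to -0.14). Genes of the shared Toll pathway had 8 of 14 above 0 and a median of 0.01, which was -0.0096 with library totals, and the regulator Tollip was at 0.16 and the kinases Irak1 and Irak2 at -0.07 and 0.09. Genes named Naip are near-identical copies whose reads can be split between them, and Naip6 was at -0.24.

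Downstream inflammatory genes gave few calls. Of 14 measured NF-kB feedback and cytokine genes 4 were above 0, with a median of -0.07 and none past 1.5-fold. The feedback inhibitors Tnfaip3 (-0.12) and Tnip1 (-0.18) were slightly lower and Nfkb1 was at 0.00. Chemokine genes had 5 of 15 above 0, with a median of -0.12. Counting intervals lay wholly above 0 for 2 of them and wholly below 0 for 2. The 2 above were Ccl9 at 0.34 (0.16 to 0.51) and Ccl6 at 0.09. The 2 below were Cx3cl1, the membrane-bound fractalkine, at -0.24 and Ccl28, which draws IgA-secreting cells to the colon, at -0.19 (-0.26 to -0.12). Interferon-stimulated genes leaned higher, with 19 of 27 above 0 and a median of 0.12, and Iigp1, an immunity-related GTPase, was the 1 past 1.5-fold (0.70, 0.34 to 1.08). Irf7, their amplifying factor, was at 94.7 CPM untreated, 90.2 after PBS, 68.1 after E. coli and 94.7 after LGG, with E. coli lowest.

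Epithelial defence genes split. Of 19 antimicrobial genes 10 were above 0 with a median of 0.02, a sign that turned to -0.10 among genes averaging 5 CPM. Reg3g, a lectin that kills Gram-positive bacteria, was at 3.05 CPM untreated, 1.99 after PBS, 1.17 after E. coli and 2.43 after LGG (1.04, 0.44 to 1.69). Its relative Reg3b was at 0.55 (0.35 to 0.75). Retnlb, the goblet cell product RELM-beta, was at 55.9, 44.2, 40.8 and 69.6 CPM (0.77, 0.67 to 0.87) and was highest after LGG. Pla2g2a, a phospholipase gene, was at -0.80 (-1.46 to -0.17). The abundant defence genes Lypd8, which holds flagellated bacteria off the epithelium (-0.11), and Pigr, the IgA transporter (-0.20), were lower by small amounts that exceed counting error.

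Genes of antigen presentation and B cells had mostly negative ratios. All 10 genes of class II presentation were at or below 0, and the median was -0.21. Intervals lay wholly below 0 for 8 of them (16.2% of all genes, 30.7% of those above 500 CPM). H2-Oa alone passed 1.5-fold (-0.64). Cd74, the invariant chain, was at 191 CPM untreated, 245 after PBS, 261 after E. coli and 225 after LGG, and the class II transactivator Ciita was at -0.38 (-0.70 to -0.08). Among B and plasma cell genes 2 of 18 were above 0 with a median of -0.24, and Mzb1 (-0.93), Blk (-0.63) and Fcer2a (-0.62) were lower past 1.5-fold. Igj, the joining chain of IgA, was at 26.9, 50.3, 45.2 and 32.7 CPM, so both the untreated and the LGG library were low. T cell genes had 1 of 11 above 0 and a median of -0.12, but none passed 1.5-fold and the counting interval of every one included equality. Among them Thy1 was at -0.06, Foxp3, the factor of regulatory T cells, at -0.07 and the receptor chain Cd247 at -0.25.

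A macrophage receptor and a T cell ligand were among the other lower calls. Siglec1, the sialic acid receptor of resident macrophages, was at 1.75 CPM untreated, 1.99 after PBS, 2.34 after E. coli and 1.06 after LGG (-1.13, -1.81 to -0.51), while the macrophage list as a whole had 7 of 20 above 0 and a median of -0.11. Vtcn1, the inhibitory T cell ligand B7-H4, was at 1.54, 1.99, 2.44 and 1.03 CPM (-1.24, -1.92 to -0.62). On the higher side H60c, a ligand of the natural killer receptor NKG2D, was at 7.99, 7.98, 5.10 and 11.2 CPM (1.14, 0.86 to 1.43), with LGG the highest library.

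Pancreatic enzyme genes were lower after LGG than after E. coli. Of 23 acinar genes 18 were measured, 1 of them was above 0, 3 passed 2-fold and 13 passed 1.5-fold on the lower side, and the median was -0.64. The summed level of the list was 267 CPM untreated, 439 after PBS, 609 after E. coli and 423 after LGG. Among them, 12 members picked for a level below 1 CPM in the untreated library, which fixes their low value there, summed to 3.40 CPM untreated, 22.4 after PBS, 79.7 after E. coli and 43.9 after LGG. LGG was below E. coli in both sums, but it was above PBS in the smaller one only. In every library most of the summed level of the list came from members outside these 12. Such enzymes are known from the exocrine pancreas, but whether colon cells made part of this RNA was not tested. Cela1, Sycn and Clps were present in all 4 libraries, at -0.41, -0.57 and 0.13.

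Cel, the bile salt-stimulated lipase (chromosome 2, 28411340 to 28418882 in mm9), had 2 counts untreated and levels of 1.06 CPM after PBS, 6.06 after E. coli and 2.53 after LGG, a ratio of -1.25 (-1.67 to -0.86). Ctrl, a chymotrypsin-like protease, was at 0.631, 0.997, 5.85 and 2.70 CPM (-1.11, -1.52 to -0.72). Cpa1, a carboxypeptidase that also had 2 counts untreated, was at 1.87 CPM after PBS, 7.09 after E. coli and 3.49 after LGG (-1.02, -1.38 to -0.68). Each of them was scarce without gavage and highest after E. coli, and LGG lay between PBS and E. coli. The Cel promoter, from RefSeq (GRCm38.p6, chr2:28563404-28563653, - strand), is shown because Cel led these genes. Capitals mark the E-box CACCTG on either strand, a letter pattern shared by the motif of the acinar factor Ptf1a and of many other factors.
Cel: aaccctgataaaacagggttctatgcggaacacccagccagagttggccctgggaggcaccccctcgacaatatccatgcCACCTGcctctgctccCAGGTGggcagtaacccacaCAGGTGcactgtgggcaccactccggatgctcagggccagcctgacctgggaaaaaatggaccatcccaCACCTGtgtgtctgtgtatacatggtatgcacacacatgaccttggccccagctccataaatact
It occurred 4 times here and stood at least 1 time in 17.2% of all promoters of that length and in 11 of the 29 called genes with a promoter. None of the 3 motifs searched contains another.

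Hox genes, which keep the position of a cell along the gut, differed by cluster. The genes of paralog groups 4 to 8 had 9 of 11 measured members above 0, 5 higher past 1.5-fold and a median of 0.52. Those of groups 9 to 13 had 4 of 11 above 0, 4 lower and 1 higher past 1.5-fold, and a median of -0.22. In the mouse gut the 5′ Hox genes of the last groups are most active in the hindgut end. Hox genes of cluster C were under 1 CPM on average.

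Hoxb6 (chromosome 11, 96160485 to 96162883 in mm9) was at 33.1 CPM untreated, 11.7 after PBS, 7.95 after E. coli and 17.0 after LGG, a ratio of 1.10 (0.87 to 1.33). Its neighbours Hoxb7 (0.99), Hoxb8 (0.78), Hoxb4 (0.62), Hoxb2 (0.54), Hoxb5 (0.52) and Hoxb3 (0.51) were on the same side, whereas Hoxb9 was at 0.00 (-0.08 to 0.08) and Hoxb13 at -0.50 (-0.55 to -0.45). Hoxd13 (chromosome 2, 74506367 to 74509656 in mm9) was at 21.2 CPM untreated, 24.9 after PBS, 39.1 after E. coli and 15.4 after LGG, a ratio of -1.34 (-1.50 to -1.18). Here LGG was the lowest and E. coli the highest library, with the others between. Hoxd12 (-1.26, -2.03 to -0.57), Hoxd10 (-0.76) and Hoxd11 (-0.70) were lower too, but Hoxd9 (0.59), Hoxd4 (0.82), Hoxd8 (0.48) and Hoxd3 (0.49) were higher, so cluster D changed sides between groups 9 and 10. Cluster A stayed between -0.38 (Hoxa2) and 0.11 (Hoxa4 and Hoxa9), with Hoxa10 at 0.10, Hoxa5 at 0.02, Hoxa7 at -0.07, Hoxa3 at -0.12 and Hoxa6, Hoxa11 and Hoxa13 all at -0.22.

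**Figure D3:**
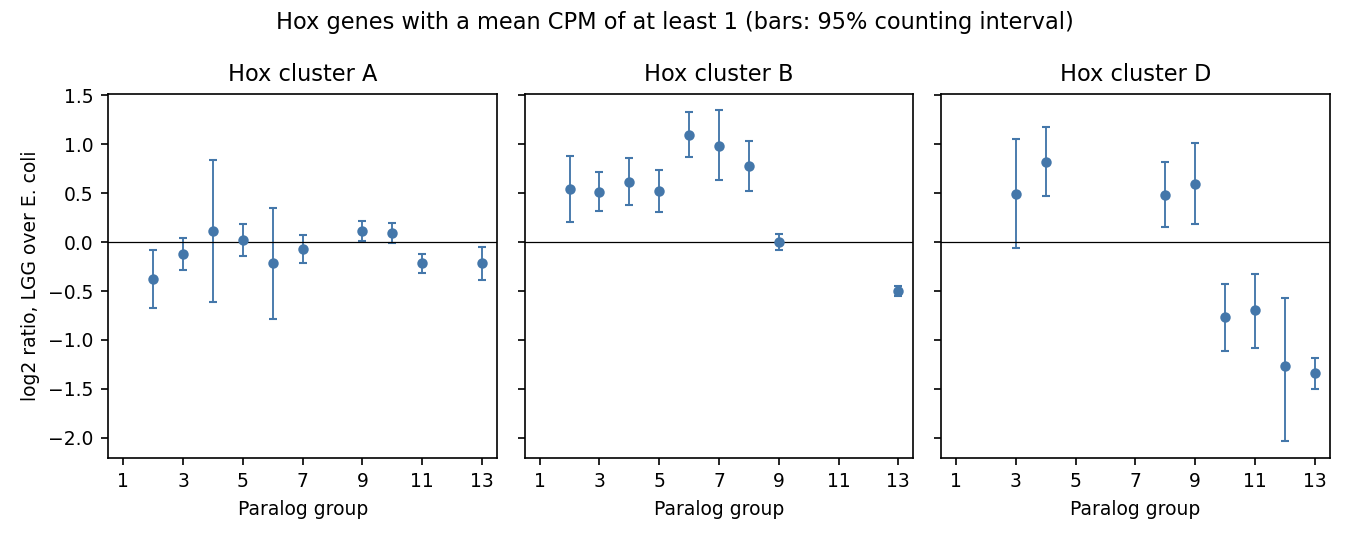
Log2 ratio of LGG over E. coli (vertical axis) for the measured genes of Hox clusters A, B and D by paralog group (horizontal axis), 1 point per gene with its 95% counting interval. Clusters B and D run from above 0 in the low groups to below 0 at group 13, and cluster A stays near 0.

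Summed over groups 4 to 8, the Hox level was 186 CPM untreated, 111 after PBS, 97.7 after E. coli and 128 after LGG, an order that Akp3, Apoa4 and Apoa1 also had. The sampled stretch of the 4 cm pieces is not given in the labels, and its part in the other differences was not tested. Cdx2, the intestinal master regulator, was at 236 CPM untreated, 149 after PBS, 148 after E. coli and 225 after LGG (0.60, 0.55 to 0.66). Nts, the hormone neurotensin of the lower small bowel and colon, was at 0.86 (0.59 to 1.14). It had the highest ratio of 18 measured enteroendocrine and tuft genes and was the 1 past 1.5-fold. Of these 18, 12 were above 0 and 6 below, with a median of 0.06.

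Colon epithelial function genes shifted by small amounts. In the ion and water transport list 6 of 24 were above 0, 15 had intervals wholly below 0 (16.2% of all genes, 30.7% of those above 500 CPM) and the median was -0.13. Scnn1g, a subunit of the sodium channel of the distal colon, was at 11.8 CPM untreated, 29.9 after PBS, 29.7 after E. coli and 17.8 after LGG (-0.74, -0.90 to -0.58), so LGG lay between the untreated library and the other gavaged ones. Of 21 tight junction genes 8 were above 0 with a median of -0.03, and Cldn1, a sealing claudin, was at 2.14, 2.31, 3.10 and 1.5 CPM (-1.03, -1.60 to -0.51). Colonocyte and goblet lists each had 13 members above 0, of 19 and 18, with medians of 0.07 and 0.05, and the mucin-glycosylating enzyme B3gnt6 was higher past 1.5-fold (0.65, 0.51 to 0.80). Cell cycle genes had 11 of 25 above 0 and a median of -0.01. The proliferation marker Mki67 was at -0.25 (-0.33 to -0.18), Pcna at 0.00 and Top2a at -0.08. Stem cell and Wnt target genes had 4 of 16 above 0, with a median of -0.09, Slc12a2 at 0.01, Prom1 at 0.40 and Lrig1 at -0.11.

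Wall tissues gave opposite small shifts. Enteric neuron and glia genes were above 0 in 19 of 20 cases with a median of 0.24, and Prph, a filament of enteric neurons, was at 29.6 CPM untreated, 22.1 after PBS, 18.4 after E. coli and 25.3 after LGG. The neuronal genes Uchl1 and Stmn2 were at 0.34 and 0.17. Smooth muscle genes were above 0 in 17 of 20 cases with a median of 0.11, with the myosin Myh11 at 0.01, Tagln at 0.24 and Des, the filament desmin, at 0.22. Mesothelial genes were so in 9 of 9 with a median of 0.35, led by Upk3b (0.76) and Upk1b (0.75), 2 uroplakins of the outer lining. Collagen and matrix genes were the reverse, with 3 of 24 above 0 and a median of -0.16. Intervals lay wholly below 0 for 17 of them (16.2% of all genes, 30.7% of those above 500 CPM). Col3a1 was at -0.12, Col1a2 at -0.27 and fibronectin Fn1 at -0.28. Endothelial genes had 2 of 17 above 0 and a median of -0.18, with Plvap at -0.18, Pecam1 at -0.25 and Eng at -0.17. Oxidative phosphorylation genes were almost all higher by a little, 32 of 33, with a median of 0.11, and none passed 1.5-fold. The ATP synthase subunits Atp5b and Atp5a1 were both at 0.02 and the cytochrome oxidase subunit Cox4i1 at 0.06. Erythroid genes had 6 of 7 above 0 with a median of 0.32, and the globins Hbb-b1 (0.48) and Hbb-bs (0.45) are near-identical copies whose reads can be split.

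**Figure D4:**
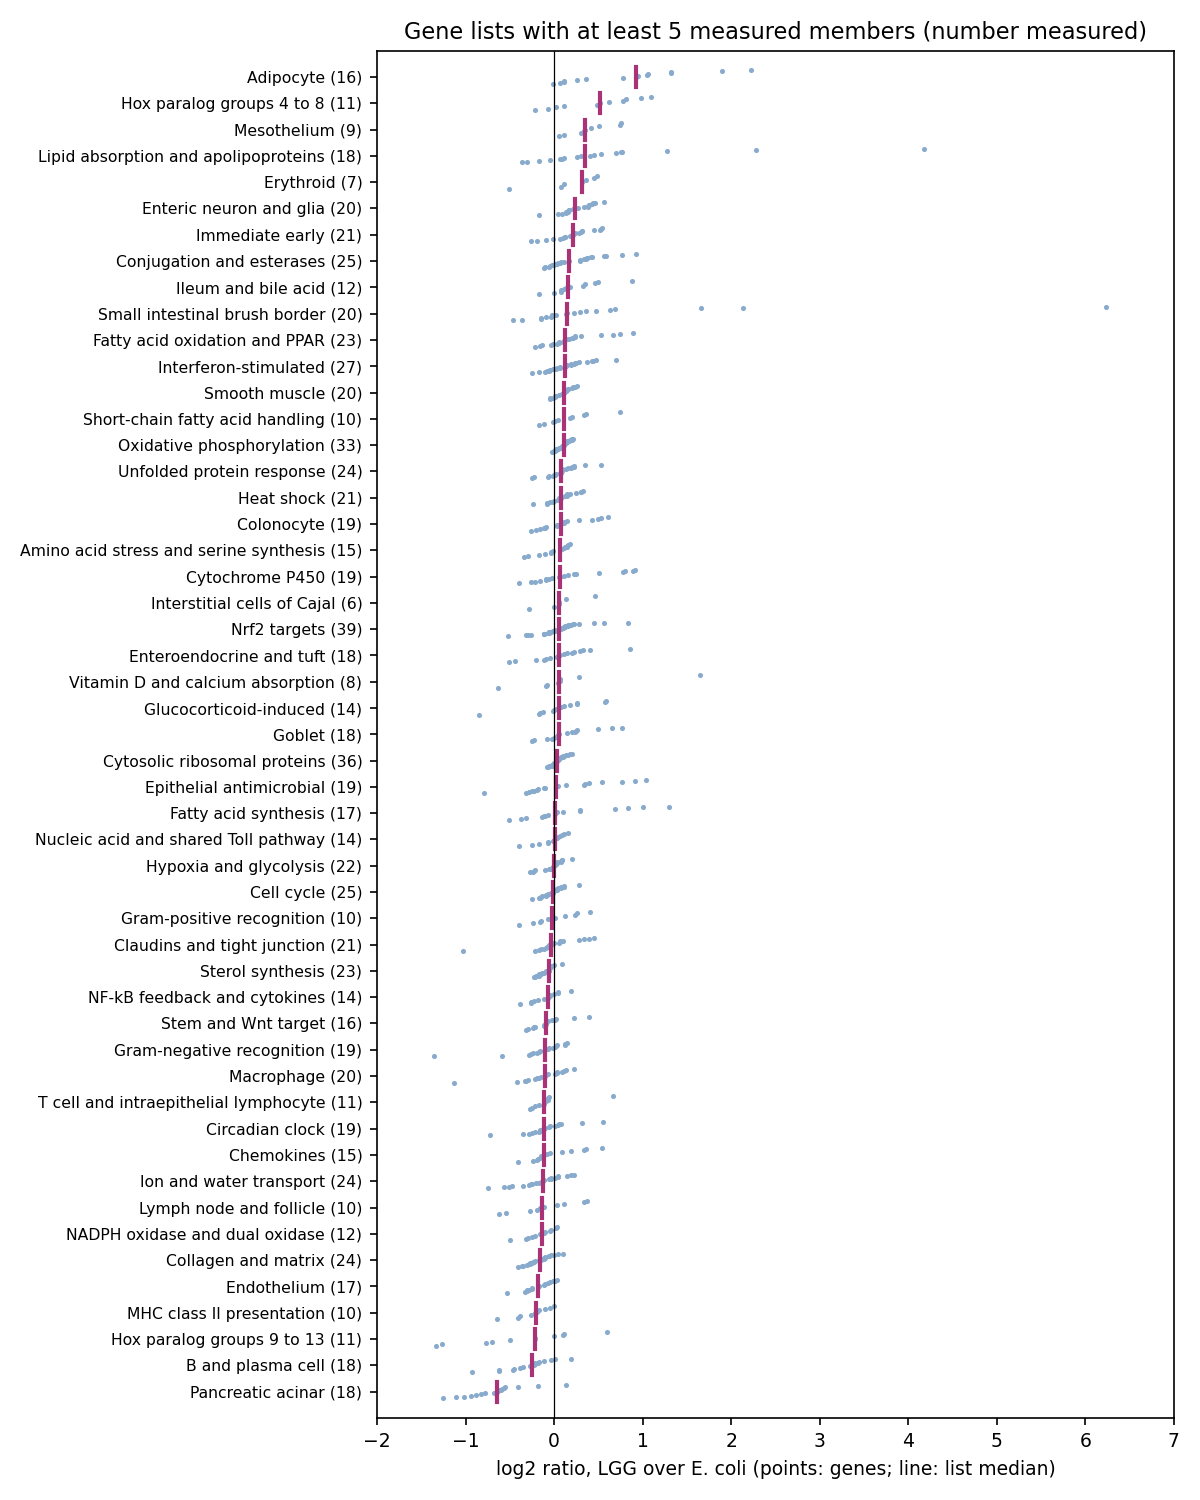
Log2 ratio of LGG over E. coli (horizontal axis) for the members of each gene list with at least 5 measured genes, 1 point per gene, with the list median as a purple line, sorted by median. The adipocyte list is at the top with 0.93 and the pancreatic acinar list at the bottom with -0.64, while most medians lie close to 0.

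Stress and rhythm genes showed few single calls. Immediate early genes had 17 of 21 above 0 and a median of 0.21, with Jund at 0.31 (0.27 to 0.35), Klf4 at -0.09 and Klf6 at -0.01. Heat shock genes had 16 of 21 above 0 with a median of 0.08, with the chaperones Hspa8 at 0.05 and Hsp90ab1 at -0.01. Hsp90aa1, the stress-inducible Hsp90, was at 378 CPM untreated, 475 after PBS, 377 after E. coli and 473 after LGG. Unfolded protein response genes had 19 of 24 above 0, also with a median of 0.08, and the lumenal chaperones Calr, Pdia3 and Hsp90b1 were at 0.02, 0.09 and 0.08. Of the clock genes 6 of 19 were above 0 with a median of -0.12, and Nr1d1 was at 174, 132, 148 and 89.0 CPM. The glucocorticoid-induced kinase Sgk1 was at 0.59 (0.55 to 0.64), whereas Zbtb16, also glucocorticoid-induced, was at -0.85 (-1.06 to -0.64), and the list had a median of 0.05.

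The remaining called genes belong to no list. Nrtn, the neurotrophic factor neurturin, was at 3.50 CPM untreated, 1.87 after PBS, 2.41 after E. coli and 5.13 after LGG (1.08, 0.67 to 1.52), with LGG highest. Slc22a3, an organic cation carrier, was at 1.06, Hapln4, a link protein of the matrix, at 1.17, and Zmat4, Tmem229a and Phactr3 were at 1.25, 1.09 and 1.03. Xlr3a (1.33) and Xlr3b (1.03) are near-identical copies on the X chromosome whose reads cannot be assigned with certainty. On the lower side were Sstr3, a somatostatin receptor (-1.35, -2.28 to -0.55), Rims4, a regulator of vesicle release (-1.0, -1.49 to -0.54), the calcium-binding Rgn (-1.09, -1.91 to -0.35) and Efhb (-1.13, -2.24 to -0.18), all under 4 CPM in every library. Among non-coding rows, 6 were called, all higher. Rmrp, the RNA of RNase MRP, was at 1.05, 3.86, 2.20 and 6.63 CPM in the untreated, PBS, E. coli and LGG libraries, Rpph1, the RNA of RNase P, at 2.17, 7.60, 4.2 and 9.23, and Rn45s had a ratio of 1.01 (1.00 to 1.02). The untreated library was the lowest for these 3 RNAs.

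The levels in the PBS and untreated libraries were set beside those after the bacteria. Among the 38 genes higher after LGG, E. coli was the lowest of the 4 libraries in 30, in 21 of them with an interval clear of the next library. LGG was the highest of the 4 in 16, in 8 of them clear of the next, and the untreated library was the highest in 21. The order E. coli, PBS, LGG, untreated held for 20 of the 38 (52.6%), and for 86 of the 194 higher genes past 1.5-fold (44.3%). Among the 14 lower genes E. coli was the highest library in 12, in 5 of them clear of the next. LGG was the lowest in 10, in 3 of them clear of the next, and the reverse of the order above held for 1. Past 1.5-fold it held for 29 of 122 (23.8%). Over all 7214 genes above 0, whatever their size, E. coli was the lowest library in 42.9%, LGG the highest in 48.0%, and the order held for 12.8%; over all genes below 0 its reverse held for 14.7%. The choice of genes by the LGG over E. coli ratio itself favours these places, and the PBS and untreated libraries differ from each other, so the places do not show which bacterial library departed, and no test was made.

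**Figure D5:**
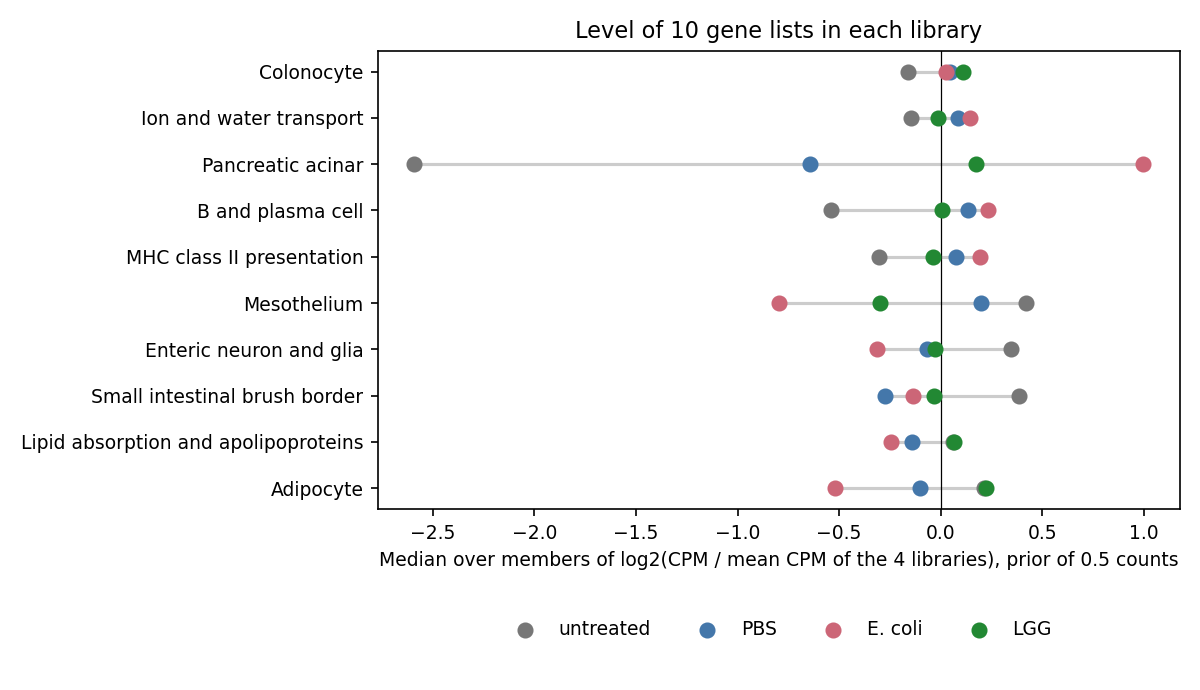
Median over the members of 10 gene lists of the log2 level in each library relative to the mean of the 4 libraries (horizontal axis), 1 point per library and list. E. coli is the lowest library for the adipocyte, lipid absorption, mesothelium and neuron lists and the highest for the acinar list, in which the untreated library is at -2.59.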

How the data were processed

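RNA was extracted from colon tissue frozen in TRIzol, cleaned on columns with DNase treatment and made into TruSeq v2 libraries, per the labels' protocols. Per the submitters' processing notes, the tools were TopHat2 and HOMER and the build was mm9 (versions and strand use not given in the sources used here). Expected counts, deposited by the authors in steps of 0.5, cover 24016 genes (20420 coding), of which 390 are listed with several genomic copies. Counts were rounded to whole numbers here.

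CPM were computed with TMM factors (edgeR 4.0.16, R 4.3.3; 0.979 to 1.05). Log2 ratios used a library-size-scaled prior of 0.5 counts, in Python 3.11.15 with numpy 2.4.6, pandas 2.3.3 and scipy 1.17.1 (figures: matplotlib 3.10.9). Intervals are exact conditional binomial (Clopper-Pearson, 95%). A count of 0 allows up to 3 counts, or 0.103 to 0.187 CPM. Intervals and floors cover counting error only. PCR copies are not told from separate molecules, so the intervals can be too narrow even for that error. The script was tested on simulated data.

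The comparison and the 54 gene lists were chosen with earlier results of these data known, and some lists share members. The naming rule took the 15 higher and all lower coding genes ranked by the interval bound nearest 0, up to 4 called members of each list (else the 3 with the most counts), 11 sensing and Nrf2 genes and all Hox genes. All other genes named were chosen after their values were seen, and some genes that the rule names are left out. Promoters from RefSeq (GRCm38.p6) were matched by symbol for 29 of 43 called coding genes. Alternatives were other scalings (DESeq2 1.42.0 size factors, library totals, upper quartile), filters, priors and thresholds.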

Additional observations from a re-analysis of the deposited data

How the results depend on the processing

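The main counts were 38 genes higher and 14 lower after LGG. With no filter on low counts they were 101 and 61, with a mean of at least 5 CPM 12 and 1, with a 1.5-fold threshold 194 and 122, and with the whole interval past 2-fold 13 and 1. With a prior of 5 counts 8 genes were lower. Library totals gave 35 and 15, DESeq2 size factors 38 and 13 and upper-quartile factors 36 and 14, and these scalings moved the median of all genes by at most 0.016 in size. Leaving out the fat, pancreas, mesothelium, blood and lymphoid lists gave 32 and 11. Only list members were left out, so Thrsp, Mrap, Hp, Nat8l and Pnpla3, also known from fat, stayed among the 32. The brush border median turned to -0.0011 at a mean of at least 5 CPM, and 6 of 54 list medians changed sign under some setting. The ratio of Akp3 fell to 4.21 with a prior of 5 counts, and that of Rn45s to 0.998 with library totals; 250 of 252 recomputed gene ratios stayed inside their main interval. E. coli was the lowest library in 30 of the 38 higher genes also under DESeq2 size factors. No paired analysis was possible because each condition has 1 library. Depth limits calls among genes under 5 CPM, where the median interval width was 1.03.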
